A study of Mus musculus with 23 samples.

Results

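Immediate early genes of the AP-1 and Egr families were followed in a mouse embryonic stem cell series, namely Fos, Fosb, Fosl1, Fosl2, Jun, Junb, Jund, Egr1, Egr2 and Ier2. They are 10 of 53607 gene rows, taken by name. All 10 had a row in the count matrix, and 9 passed the filter on low counts, since Egr2 never reached more than 8 counts in a library. RNA was sequenced from 23 libraries in 8 groups, which combine ERF (wild type or labelled ERF knockout), RAS (present or deleted) and medium (2iL or FA). Each group held 3 libraries, except that RAS present, ERF wild type cells in FA had 2. Every group shares the Raslox/lox background, labelled as lacking H-Ras and N-Ras and carrying Ubiq-CreERT2, a Cre recombinase expressed from a ubiquitin promoter and switched on by 4-hydroxytamoxifen (OHT). The RAS deleted groups had received OHT for 6 days and the RAS present groups had not, so an effect of OHT itself and one of losing RAS cannot be told apart. 2iL is a medium with LIF, the MEK inhibitor PD0325901 and the GSK3 inhibitor CHIR99021, which holds the cells in a naive state. FA is FGF2 at 12 ng/ml with Activin A at 20 ng/ml on fibronectin for 48 hours, which moves naive cells towards an epiblast-like state. The labels do not say whether the libraries of a group came from separate cultures, so p-values measure only the spread between these libraries, which may be technical, and the knockout lines are not described as single clones or pools.

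Immediate early genes are transcribed within minutes of a growth factor signal, from promoters that need no newly made protein. Fos family proteins pair with Jun family proteins through leucine zippers to form AP-1, a transcription factor, while Jun proteins also pair with each other. Egr1 and Egr2 are zinc finger transcription factors. ERK phosphorylates ETS-domain cofactors of serum response factor at several of these promoters and also stabilises the Fos proteins, so the family is a common readout of RAS and ERK signalling. ERF is an ETS-domain repressor that ERK drives out of the nucleus, and the MEK inhibitor in 2iL blocks ERK whether or not RAS is present.

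The libraries held 16221640 to 29874207 estimated counts, and mitochondrial transcripts took 2.09 to 3.99% of each. Of the genes the labels name as targets, Erf kept its RNA where it is labelled knocked out: its level ran from 49.3 to 172 CPM (counts scaled to library size) there and from 56.5 to 90.2 CPM in wild type. A gene-level count cannot show a small change in the sequence, so the ERF label rests on the submitters' word, and every ERF direction below is that of the libraries labelled knockout. Hras (12.0 to 25.9 CPM) and Nras (5.32 to 52.3 CPM) also kept counts in every library, so their labelled loss likewise rests on the submitters' word. The 5 pluripotency markers Pou5f1, Sox2, Sall4, Utf1 and Lin28a summed to 1030 to 1510 CPM, and the 6 fibroblast markers to 2.23 to 8.49 CPM, with Postn at 0 in 7 of the 8 groups. Naive markers summed to 2760 to 3400 CPM in 2iL, to 204 to 322 CPM in 3 of the FA groups and to 1180 to 1990 CPM in ERF wild type with RAS deleted in FA, apart from the other FA groups. The part of this in the member levels was not tested. Epiblast-like markers stood at 46.7 to 74.9 CPM in 2iL and 121 to 722 CPM in FA, and mesoderm markers at 5.36 to 19.1 CPM. Trophoblast markers stood at 100 to 123 CPM in ERF wild type in 2iL and 40.7 to 53.3 CPM in labelled knockout in 2iL. In FA they stood at 10.3 to 55.1 CPM. Neural markers stood at 114 to 124 CPM in labelled knockout with RAS deleted in FA and at 27.1 to 74.1 CPM elsewhere. The part of these markers in the member levels was not tested. The 4 ERF wild type libraries numbered replicate 1 stood apart: the median of 525 genes on chromosome 8 lay 0.23 to 0.33 log2 units above the mean of all libraries in them and between -0.10 and 0.00 in the other 19. Junb, Jund and Ier2 lie on that chromosome, so their main values are given with and without those 4 libraries. Leaving them out leaves the RAS present, ERF wild type group in FA with 1 library, which is then assumed to vary like the other groups.

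**Figure D1:**
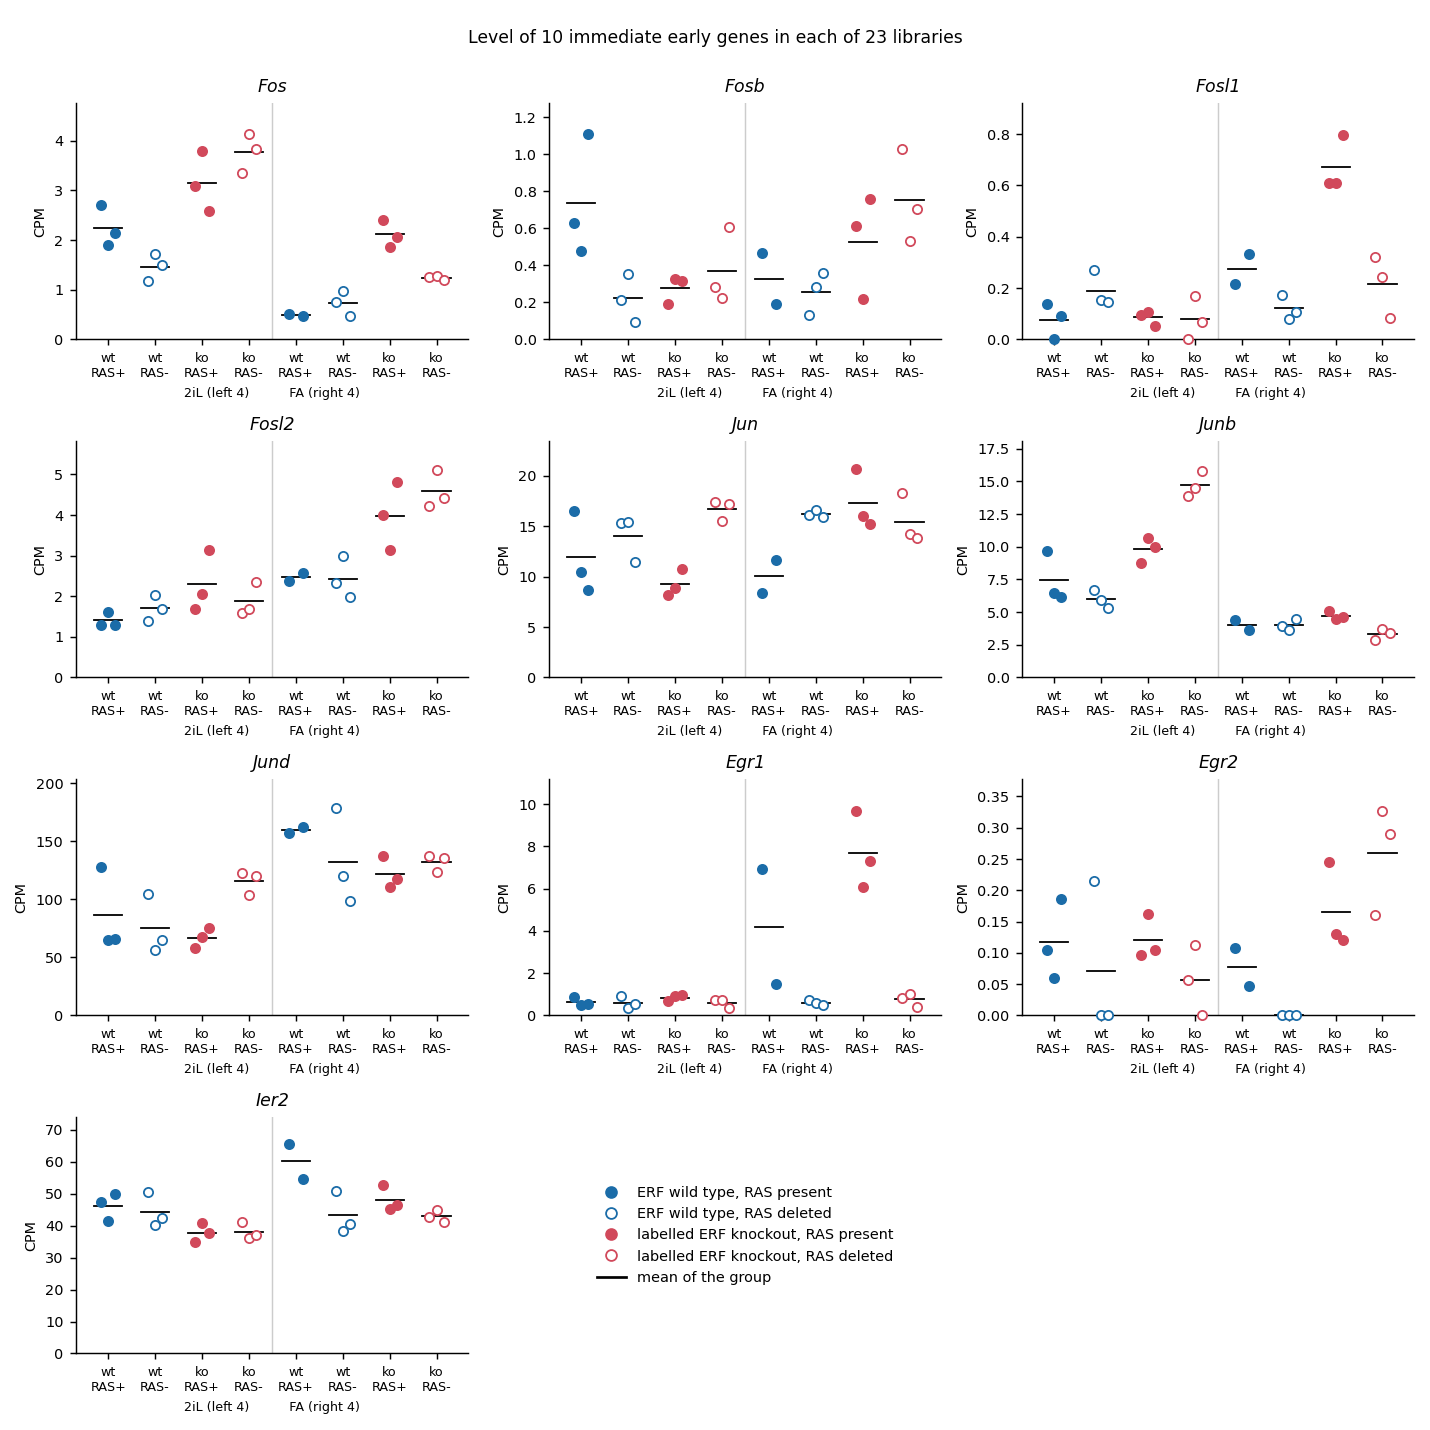
Level of each member in CPM (vertical axis, from 0) in every library, with the 8 groups along the horizontal axis, 2iL left of the grey line and FA right of it. Points are libraries, filled for RAS present and open for RAS deleted, blue for ERF wild type and red for labelled knockout, and bars are group means. Fos and Junb stood highest by mean in 2iL with labelled ERF knockout and RAS deleted (3.36 to 4.14 and 13.9 to 15.8 CPM). Fos there overlapped labelled knockout with RAS present in 2iL (2.58 to 3.79 CPM). Egr1 passed 1.1 CPM only in FA with RAS present.

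Levels can be compared between genes only per length, and on that scale the Jun family was far more abundant than the Fos family. The mean over all 23 libraries in TPM, which also corrects for transcript length, was 67.9 for Jund, 30.6 for Ier2, 4.30 for Jun, 3.87 for Junb, 1.35 for Fos, 0.617 for Fosl2, 0.515 for Egr1, 0.144 for Fosb, 0.127 for Fosl1 and 0.0892 for Egr2. Jund, a Jun protein that is present in resting cells and depends little on a stimulus, took 81.3 to 95% of the summed TPM of the 3 Jun genes in every library. The Jun sum was 14.7 to 43.1 times the Fos family sum in the 2iL libraries and 24.1 to 107 times in the FA libraries. Within the Fos family, Fos had the highest mean TPM in the 4 groups in 2iL and Fosl2 in 3 of the 4 groups in FA. In labelled knockout with RAS present, Fos also led in FA, at 1.5 against 0.804 mean TPM. Fos made up 57.5 to 84.3% of the Fos family TPM in the 2iL libraries and 22.9 to 58.5% in the FA libraries, where Fosl2, a Fos-related protein without the strong activating end of Fos, took most of the rest. The share of Fos was lowest in the RAS present, ERF wild type group in FA, at 22.9 and 29.6%. These shares are a description, with no test.

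**Figure D2:**
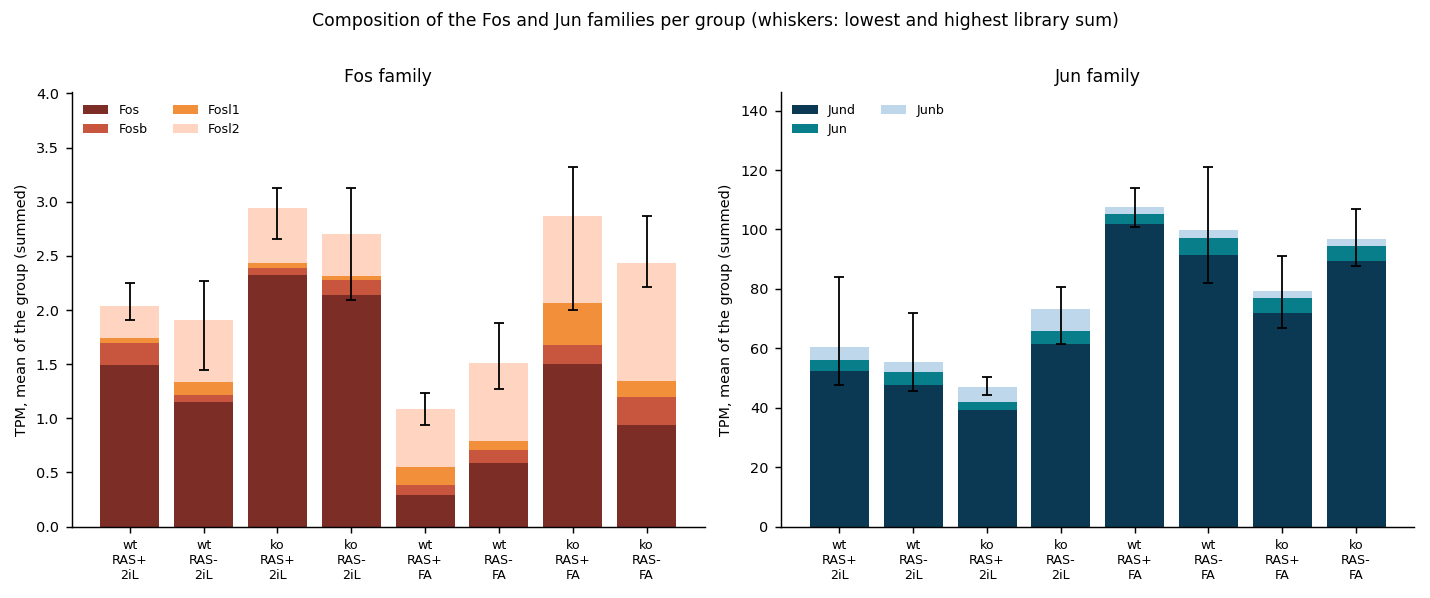
Mean TPM per group (vertical axis, from 0), stacked by gene for the Fos family (left) and the Jun family (right), with the 8 groups along the horizontal axis. Whiskers run from the lowest to the highest library sum. The Fos segment shrinks from 2iL to FA while the Fosl2 segment grows, and Jund fills over 81% of every Jun column.

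Promoter sequence is shown for Fos and Junb, the members called between the labelled ERF groups in 2iL with RAS deleted, and for Jun, a family member called in none of the 12 comparisons. They were chosen after their values were seen, and ETS-type letters are marked because ERF is an ETS-domain protein. RefSeq's table of promoters (build GRCm38.p6) held 7 of the 10 members, without Fosl1, Egr1 and Ier2. The 250 bases before the annotated start are chr12:85473640-85473889 on the plus strand for Fos, chr8:84978749-84978998 on the minus strand for Junb and chr4:95052223-95052472 on the minus strand for Jun. Capitals mark the ETS core GGAA, the half-site of the cyclic AMP response element TGACG and the TATA box TATAAA, on either strand.
Fos: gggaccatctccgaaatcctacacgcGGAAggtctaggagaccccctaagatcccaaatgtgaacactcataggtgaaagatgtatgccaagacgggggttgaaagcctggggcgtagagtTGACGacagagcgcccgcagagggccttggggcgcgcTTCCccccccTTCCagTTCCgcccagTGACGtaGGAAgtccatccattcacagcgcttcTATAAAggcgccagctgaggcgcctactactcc
Junb: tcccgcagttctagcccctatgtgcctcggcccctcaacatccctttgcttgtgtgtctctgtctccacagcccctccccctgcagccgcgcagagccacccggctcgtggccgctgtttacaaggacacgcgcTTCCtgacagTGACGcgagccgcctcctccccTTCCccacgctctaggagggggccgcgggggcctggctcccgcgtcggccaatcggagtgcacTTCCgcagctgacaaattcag
Jun: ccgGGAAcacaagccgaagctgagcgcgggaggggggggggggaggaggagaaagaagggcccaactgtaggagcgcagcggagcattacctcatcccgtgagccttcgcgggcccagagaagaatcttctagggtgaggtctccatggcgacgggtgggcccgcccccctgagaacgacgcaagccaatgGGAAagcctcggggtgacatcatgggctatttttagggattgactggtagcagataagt
The Fos window held 5 ETS cores, at 224, 92, 82, 76 and 59 bases before the start, counted to the leftmost base of each match. It also held 2 TGACG half-sites, at 129 and 66 bases, and a TATAAA at 33 bases. Junb held 3 ETS cores, at 116, 84 and 21 bases, and 1 TGACG, at 106 bases. Jun held 2 ETS cores, at 247 and 59 bases, and neither of the others. Of 32851 windows of the same length in the table, 93.4% held GGAA on either strand, 17.8% held TGACG and 12.4% held TATAAA, so an ETS core is a feature of nearly every promoter. The AP-1 site TGANTCA (6.75% of windows) was in none of the 3 windows. The ETS cores do not overlap the TGACG matches or each other. These matches are letters in a window and not sites of binding.

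Differences were tested with edgeR's quasi-likelihood test, and a member counted as called where it differed at least 2-fold with a p under 0.05 after Benjamini-Hochberg adjustment over all 20372 tested genes. The words rose and fell are kept for called members. From 2iL to FA, 2 of the 9 tested members were called in ERF wild type with RAS present (24% of all tested genes), 1 with RAS deleted (16.5%), 3 in labelled knockout with RAS present (19.7%) and 3 with RAS deleted (24.9%). On RAS deletion, 0 were called in 2iL in ERF wild type (1.2% of genes) and 0 in labelled knockout (0.211%), then 1 in FA in ERF wild type (17.3%) and 2 in labelled knockout (6.88%). For labelled knockout against wild type, 1 was called in 2iL with RAS present (9.72%), 2 with RAS deleted (13%), 1 in FA with RAS present (2.36%) and 1 with RAS deleted (16.6%). Fosl1 is 1 of the 3 called from 2iL to FA in labelled knockout with RAS present and 1 of the 2 called on RAS deletion in FA there. It passed the low-count filter through the group in which it was high, so its calls add nothing to those counts. These percentages are the background share of all genes, and no test set the 9 members apart from it. For the 2 counts of 0, an unadjusted p under 0.05 held for 2 members in wild type and 3 in labelled knockout, and DESeq2 also called 0 in both. In wild type the nearest was Fosb (log2 difference -1.73, SE 0.55, adjusted p = 0.064), which was called without the low-count filter (adjusted p = 0.0186) or without replicate 1 of wild type with RAS deleted in FA (0.0497). The median log2 difference of all tested genes lay within 0.035 of 0 in each of the 12 comparisons. Comparisons that use the same group share its libraries, so their values for a gene are given side by side and not as repeats of each other.

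**Figure D3:**
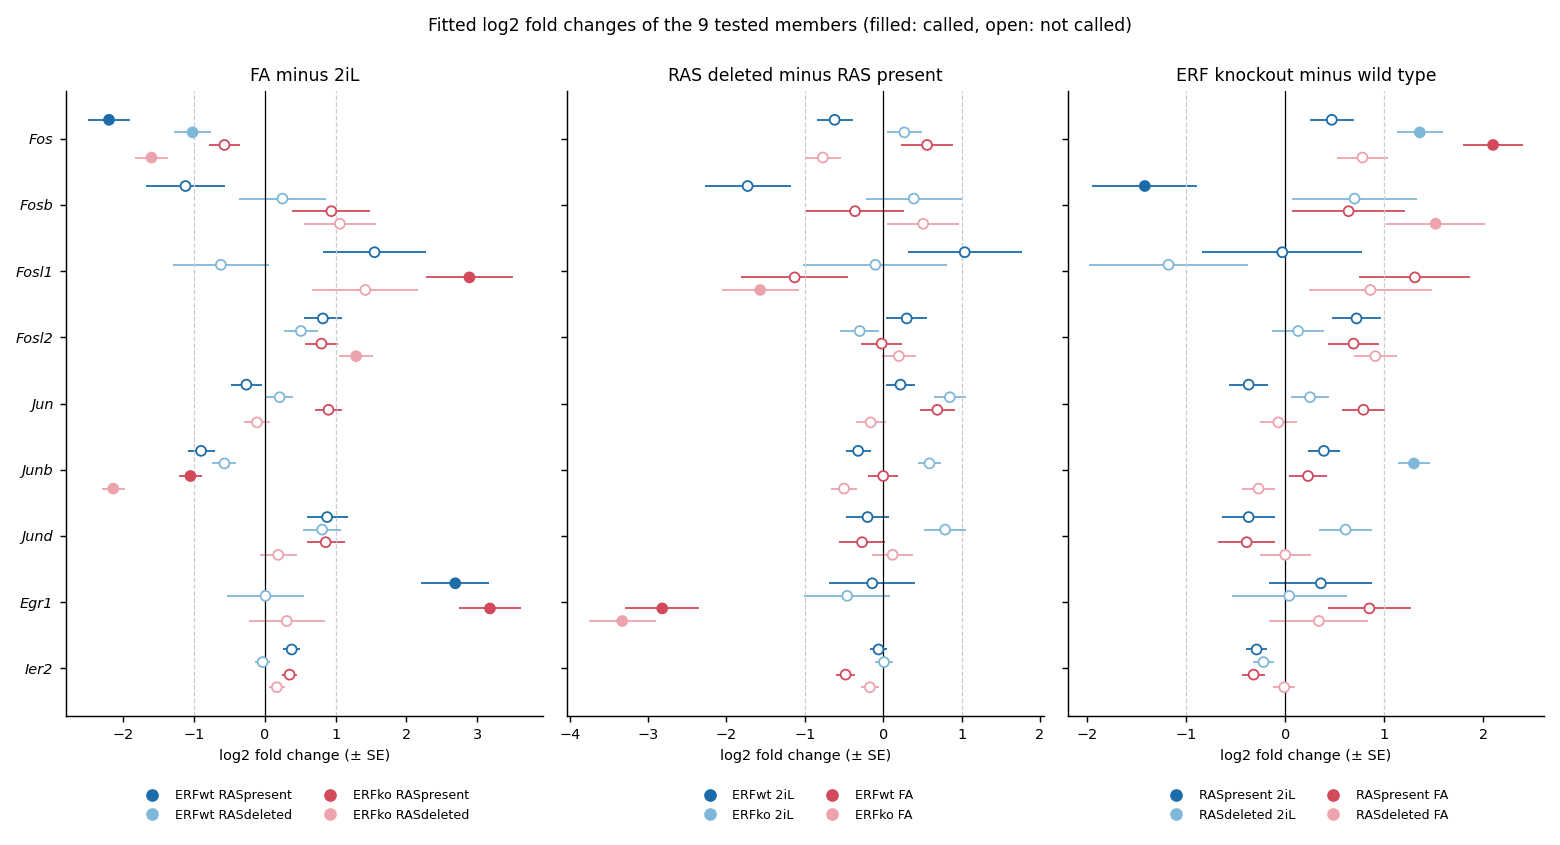
Fitted log2 fold change with its standard error (horizontal axis) of the 9 tested members (vertical axis) in the 12 comparisons, 4 per panel by colour. Filled points were called and open points were not (both filled Fosl1 points involve the group through which it passed the low-count filter). Egr1 stands out at -2.82 and -3.33 on RAS deletion in FA and at 2.69 and 3.18 from 2iL to FA with RAS present, and Fos lies below 0 in all 4 medium comparisons.

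Fos, the best known member of the family, whose mRNA is made and destroyed quickly, was lower in FA than in 2iL and higher in labelled ERF knockout, as called in some backgrounds. In 2iL its level was 2.70, 1.90 and 2.14 CPM in ERF wild type with RAS present and 1.18, 1.72 and 1.5 CPM with RAS deleted. In the labelled knockout in 2iL it was 3.08, 3.79 and 2.58 CPM with RAS present and 3.36, 4.14 and 3.84 CPM with RAS deleted. In FA it was 0.504 and 0.474 CPM in ERF wild type with RAS present and 0.745, 0.973 and 0.467 CPM with RAS deleted. The labelled knockout in FA stood at 2.40, 1.87 and 2.07 CPM with RAS present and at 1.26, 1.27 and 1.20 CPM with RAS deleted. The 3 labelled knockout libraries lay above all wild type libraries in 3 of the 4 backgrounds, and the ranges overlapped in 2iL with RAS present. The 2iL and FA ranges were apart in all 4. By mean TPM the same pair of groups was highest, but in the other order, with 2.32 ± 0.455 (SD, n = 3) in labelled knockout with RAS present in 2iL and 2.14 ± 0.479 (SD, n = 3) with RAS deleted. In bulk RNA, fewer expressing cells and less RNA per cell cannot be told apart.

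From 2iL to FA, Fos fell 4.58-fold in ERF wild type with RAS present (log2 change -2.20, SE 0.30, adjusted p = 2.11e-06). It fell 3.04-fold in labelled knockout with RAS deleted (log2 change -1.60, SE 0.23, adjusted p = 2.57e-06) and 2.03-fold in wild type with RAS deleted (log2 change -1.02, SE 0.26, adjusted p = 0.00268). The last of these no longer reached 2-fold without replicate 2 of the 2iL group (-0.89) or without replicate 3 of the FA group (-0.77). In labelled knockout with RAS present the difference was -0.57 (SE 0.22, adjusted p = 0.0362), under the 2-fold minimum. Between ERF groups, Fos was 4.28-fold higher in the labelled knockout in FA with RAS present (log2 change 2.10, SE 0.30, adjusted p = 0.000202) and 2.56-fold higher in 2iL with RAS deleted (1.36, SE 0.23, adjusted p = 6.13e-05). It differed by 0.78 in FA with RAS deleted (SE 0.26, adjusted p = 0.0169) and by 0.47 in 2iL with RAS present (SE 0.22, adjusted p = 0.118), neither called. The former reached 1.05 (adjusted p = 0.00566) without wild type replicate 2. RAS deletion called Fos in no background, with values of -0.62 (adjusted p = 0.12) and 0.27 (0.623) in 2iL for wild type and labelled knockout, and 0.56 (0.201) and -0.77 (0.0165) in FA. The Fos levels rest on 10 to 77 counts per library.

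Fosb and Fosl1 were near the limit of what these libraries can count. Fosb, a Fos relative known for its stable splice form in neurons, ran from 0.0968 to 1.11 CPM, that is 2 to 32 counts. In 2iL with RAS present it was 0.630, 0.476 and 1.11 CPM in wild type and 0.192, 0.325 and 0.315 CPM in labelled knockout, and it fell 2.67-fold (log2 change -1.42, SE 0.53, adjusted p = 0.0496). That call was lost with effective length offsets (adjusted p = 0.0963), without the abundant row Gm26917 (0.0516), with DESeq2 (0.0882) and without any 1 of 14 libraries, where the highest adjusted p was 0.237. In 2iL these were replicates 1 and 3 of wild type with RAS present, replicate 1 of wild type with RAS deleted, all 3 of labelled knockout with RAS present and replicates 1 and 2 with RAS deleted. In FA they were replicate 2 of wild type with RAS deleted, replicates 1 and 3 of labelled knockout with RAS present and all 3 with RAS deleted. In FA with RAS deleted it was 0.131, 0.284 and 0.359 CPM in wild type and 1.03, 0.531 and 0.705 CPM in labelled knockout, a 2.86-fold rise (1.52, SE 0.50, adjusted p = 0.0169). This call was lost with effective length offsets (0.0954), without wild type replicate 1 (0.0748), without labelled knockout replicate 1 (0.0989) and without the 4 libraries with raised chromosome 8 (0.0657). From 2iL to FA in labelled knockout with RAS deleted, Fosb differed by 1.06 (SE 0.51, adjusted p = 0.0825), not called. It was called with the compared groups alone (1.07, adjusted p = 0.0415), with the replicate block added to them (1.05, 0.0432) and without replicate 3 of the 2iL group (1.57, 0.0356). The 2 Fosb calls between ERF groups thus point in opposite directions in the 2 backgrounds.

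Fosl1, which encodes Fra-1, a Fos protein often raised by sustained ERK signalling, passed the low-count filter through 1 group, labelled knockout with RAS present in FA, and so had to differ there. Its comparisons with that group are therefore given as counts, with no test. The counts were 15, 14 and 20 in that group (0.611, 0.608 and 0.797 CPM) and at most 10 in every other library. In the same labelled knockout in 2iL they were 2, 2 and 1, with no overlap. With RAS deleted in FA, the labelled knockout libraries held 10, 6 and 2 counts (0.322, 0.245 and 0.0829 CPM), all below the RAS present ones. In ERF wild type, Fosl1 was 0.216 and 0.331 CPM in FA with RAS present and 0.175, 0.081 and 0.108 CPM with RAS deleted, which was not called (log2 difference -1.13, SE 0.68, adjusted p = 0.195).

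Fosl2, which encodes Fra-2, was higher in FA than in 2iL in all 4 backgrounds, and was called in 1. In labelled knockout with RAS deleted it was 1.59, 1.68 and 2.36 CPM in 2iL and 4.22, 5.10 and 4.43 CPM in FA, a 2.45-fold rise (log2 change 1.29, SE 0.24, adjusted p = 6.79e-05). The other 3 differences were 0.82 (SE 0.27, adjusted p = 0.0146) in ERF wild type with RAS present, 0.51 (SE 0.24, adjusted p = 0.1) with RAS deleted, and 0.80 (SE 0.23, adjusted p = 0.00656) in labelled knockout with RAS present. In FA with RAS deleted, the labelled knockout exceeded wild type (2.32, 3.00 and 1.98 CPM) by 0.91 (SE 0.22, adjusted p = 0.0019), under the 2-fold minimum. The same ERF difference was 0.69 (SE 0.26, adjusted p = 0.0865) in FA with RAS present, and in 2iL 0.72 (SE 0.25, adjusted p = 0.0363) with RAS present and 0.13 (SE 0.26, adjusted p = 0.738) with RAS deleted, none called. Single libraries held 2 of these values under 2-fold: without replicate 3 of the 2iL group, the difference in labelled knockout with RAS present was 1.09 (adjusted p = 0.00109), and without wild type replicate 2 that between ERF groups in FA with RAS deleted was 1.09 (adjusted p = 0.00158). From 2iL to FA, Fosl2 lay higher and Fos lower in all 4 backgrounds, though not called in each. Both lay higher in labelled knockout than in wild type in all 4, with Fosl2 called in none.

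Jun, which encodes c-Jun, the JNK-responsive member of its family, ran from 8.17 to 20.7 CPM and was called in none of the 12 comparisons. In 2iL it was 16.5, 10.5 and 8.73 CPM in ERF wild type with RAS present, 15.3, 15.4 and 11.5 CPM with RAS deleted, 8.17, 8.88 and 10.8 CPM in labelled knockout with RAS present and 17.4, 15.5 and 17.2 CPM with RAS deleted. In FA the same 4 groups stood at 8.42 and 11.7 CPM, then 16.1, 16.6 and 15.9 CPM, then 20.7, 16 and 15.2 CPM, and then 18.3, 14.2 and 13.8 CPM. The labelled knockout with RAS present was the only background in which every FA library lay above every 2iL library and the difference passed an adjusted p of 0.05 (log2 difference 0.90, SE 0.19, adjusted p = 0.000643). Without replicate 3 of that 2iL group the difference was 1.02 (adjusted p = 0.000878), past 2-fold. Differences under 2-fold with an adjusted p under 0.05 were also measured on RAS deletion in labelled knockout in 2iL (0.85, SE 0.20, adjusted p = 0.0363) and in wild type in FA (0.69, SE 0.22, adjusted p = 0.0139), and for labelled knockout against wild type in FA with RAS present (0.79, SE 0.22, adjusted p = 0.0255). The last was 1.06 without wild type replicate 2 (adjusted p = 0.0178). Without the 4 libraries with raised chromosome 8, the last 2 were 0.48 (adjusted p = 0.0837) and 0.59 (adjusted p = 0.106).

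Junb, whose protein can restrain c-Jun in proliferating cells, differed between the groups in 2iL and lay close together in FA. In 2iL it was 9.66, 6.49 and 6.13 CPM in ERF wild type with RAS present, 6.72, 5.93 and 5.32 CPM with RAS deleted, 8.75, 10.7 and 9.99 CPM in labelled knockout with RAS present and 13.9, 14.5 and 15.8 CPM with RAS deleted. In FA all 11 libraries lay between 2.90 and 5.05 CPM. The labelled knockout with RAS deleted was thus the highest of the 4 groups in 2iL, with no overlap, and the lowest by mean in FA.

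From 2iL to FA, Junb fell 4.41-fold in labelled knockout with RAS deleted (log2 change -2.14, SE 0.16, adjusted p = 1.76e-10) and 2.07-fold with RAS present (-1.05, SE 0.16, adjusted p = 9.35e-06). The latter lay just past 2-fold and just under it without replicate 2 of the 2iL group (-0.99). In wild type the differences were -0.90 (SE 0.19, adjusted p = 0.000301) with RAS present and -0.57 (SE 0.17, adjusted p = 0.00724) with RAS deleted, not called. The former passed 2-fold without replicate 3 of the 2iL group (-1.02) or replicate 1 of the FA group (-1.07). Between ERF groups, Junb was 2.46-fold higher in the labelled knockout in 2iL with RAS deleted (1.30, SE 0.16, adjusted p = 1.01e-06). RAS deletion gave 0.59 in labelled knockout in 2iL (SE 0.15, adjusted p = 0.0561) and -0.50 in FA (SE 0.17, adjusted p = 0.0308), neither called. Without the 4 libraries with raised chromosome 8, the values were -2.15, -1.06, -0.82 and -0.48 for the medium in the order given, and 1.40 for labelled knockout against wild type in 2iL with RAS deleted (adjusted p = 5.07e-08), with the same calls, and -0.51 (adjusted p = 0.00544) for RAS deletion in labelled knockout in FA.

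Jund was called in no comparison, and in 3 of the 4 wild type groups its highest value was in replicate 1. In 2iL it was 128, 64.6 and 66.2 CPM in ERF wild type with RAS present, 105, 56.7 and 65.1 CPM with RAS deleted, 58.1, 67.6 and 75.7 CPM in labelled knockout with RAS present and 123, 104 and 120 CPM with RAS deleted. In FA it was 157 and 162 CPM, 179, 120 and 98.8 CPM, 137, 111 and 118 CPM, and 137, 124 and 136 CPM in the same order. Between 2iL and FA the log2 differences were 0.88 (SE 0.29, adjusted p = 0.0188), 0.81 (SE 0.27, adjusted p = 0.022), 0.86 (SE 0.27, adjusted p = 0.0146) and 0.19 (SE 0.26, adjusted p = 0.561). Without the 4 libraries with raised chromosome 8, the first of these was 1.29 (adjusted p = 2.76e-06) and became a call, and the next 2 were 0.84 and 0.86, below 2-fold as before. Leaving out replicate 1 of the 2iL group alone gave 1.29 with RAS present (adjusted p = 0.000811) and 1.12 with RAS deleted (adjusted p = 0.00427) in wild type, both past 2-fold. In the replicate 1 libraries of 3 of the 4 wild type groups, Jund stood 0.48 to 0.65 log2 units above its group mean. Whether the level of chromosome 8 sets those values was not tested.

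**Figure D4:**
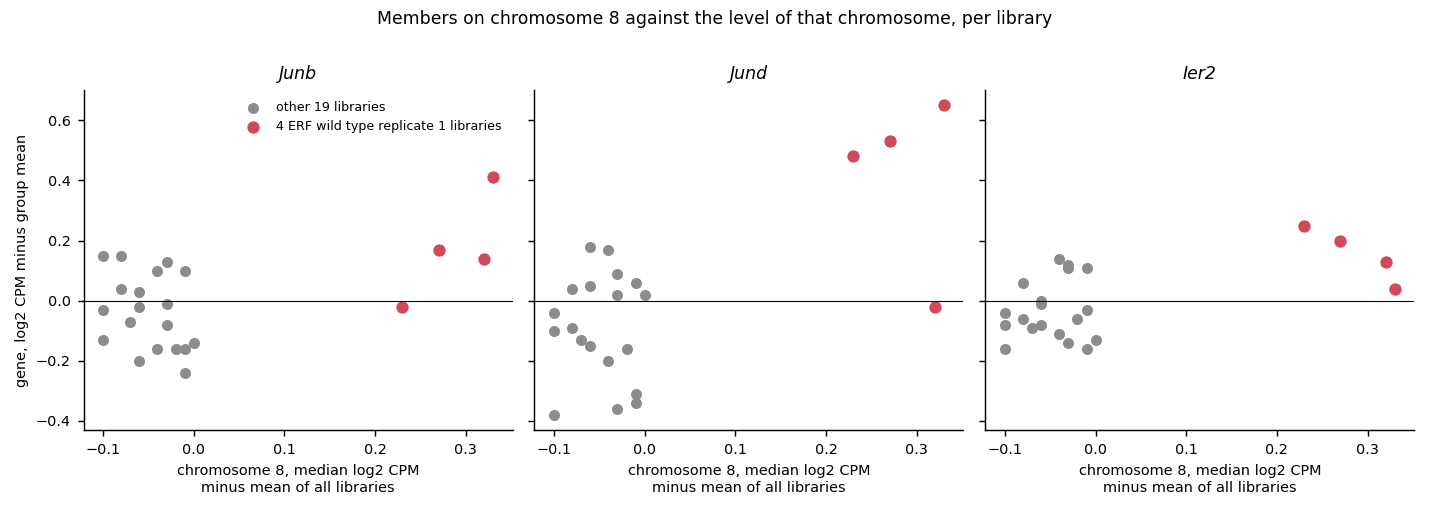
Junb, Jund and Ier2 in each library, as log2 CPM minus the group mean (vertical axis), against the median log2 CPM of chromosome 8 genes minus the mean of all libraries (horizontal axis). Red points are the 4 ERF wild type replicate 1 libraries and grey points the other 19. The 4 red points lie at 0.23 to 0.33 on the horizontal axis, and Jund reaches 0.48, 0.53 and 0.65 in 3 of them.

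Egr1, a zinc finger factor and a direct target of ERK signalling in many cell types, was high in FA with RAS present and in no other condition. In 2iL it was 0.875, 0.476 and 0.557 CPM in ERF wild type with RAS present, 0.914, 0.355 and 0.532 CPM with RAS deleted, 0.673, 0.920 and 0.946 CPM in labelled knockout with RAS present and 0.740, 0.728 and 0.337 CPM with RAS deleted. In FA with RAS present it was 6.94 and 1.47 CPM in wild type and 9.70, 6.08 and 7.33 CPM in labelled knockout. In FA with RAS deleted it was 0.745, 0.567 and 0.503 CPM in wild type and 0.837, 1.02 and 0.414 CPM in labelled knockout. All 5 libraries of FA with RAS present lay above the 18 others, whose highest value was 1.02 CPM. The 2 wild type libraries of that condition lay far from each other.

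With RAS present, Egr1 rose 9.09-fold from 2iL to FA in labelled knockout (log2 change 3.18, SE 0.44, adjusted p = 3.56e-06) and 6.45-fold in wild type (2.69, SE 0.48, adjusted p = 7.22e-05). The wild type value rests on replicate 1: without it the change was 1.13 (adjusted p = 0.0592), and without all 4 libraries with raised chromosome 8 it was 1.47 (adjusted p = 0.0166). With RAS deleted, the same step gave 0.01 (SE 0.55, adjusted p = 0.991) in wild type and 0.31 (SE 0.54, adjusted p = 0.647) in labelled knockout, with 95% intervals from -1.06 to 1.08 and from -0.74 to 1.37. On RAS deletion in FA, Egr1 fell 10.1-fold in labelled knockout (log2 change -3.33, SE 0.43, adjusted p = 1.08e-05) and 7.05-fold in wild type (-2.82, SE 0.47, adjusted p = 5.91e-05). Leaving out libraries 1 at a time, the wild type value ran from -3.50 to -1.26, and the difference remained called. In 2iL, where MEK is inhibited, RAS deletion gave -0.14 (adjusted p = 0.92) and -0.46 (adjusted p = 0.764). Labelled knockout and wild type were not called apart for Egr1 in any background, and the largest difference was 0.85 in FA with RAS present (SE 0.42, adjusted p = 0.209, 95% interval 0.04 to 1.67). That value also rests on wild type replicate 1: without it the difference was 2.42 (adjusted p = 0.00751) and became a call, as it did without the 4 libraries with raised chromosome 8 (2.42, adjusted p = 0.000673).

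Markers of another cell type were higher in the same condition. The 7 primitive endoderm markers, of which none was at 0 in any group, summed to 104 to 176 CPM in FA with RAS present, to 15.3 to 33.4 CPM in FA with RAS deleted and to 12.1 to 69.5 CPM in 2iL. Their part in the level of Egr1 was not tested. Egr2, a relative of Egr1 best known from hindbrain and nerve sheath cells, held 0 to 8 counts per library and was not tested. It was at 0 in all 3 libraries of ERF wild type with RAS deleted in FA, which allows up to 3 counts in each, or 0.108 to 0.131 CPM. The highest group by mean was at 5, 8 and 7 counts (0.161, 0.327 and 0.290 CPM) in labelled knockout with RAS deleted in FA, where Egr1 was low. Those 3 libraries lay above the wild type ones with RAS deleted in FA, and Egr2 was called there without the low-count filter (adjusted p = 0.000266) and with DESeq2 (adjusted p = 0.00204). The fitted fold against a group at 0 depends on the prior count and is not given.

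Ier2, a nuclear protein of unsettled function, was the steadiest member, from 35.0 to 65.7 CPM, and was called in no comparison. The RAS present, ERF wild type group in FA was highest, at 65.7 and 54.6 CPM, above all other libraries. That group exceeded the same cells in 2iL (47.4, 41.3 and 49.8 CPM) by 0.38 (SE 0.12, adjusted p = 0.0102) and the RAS deleted cells in FA (50.9, 38.4 and 40.5 CPM) by 0.48, given as -0.48 on deletion (SE 0.12, adjusted p = 0.00223). Without the 4 libraries with raised chromosome 8 these were 0.24 (adjusted p = 0.0999) and -0.45 (adjusted p = 0.00281). In labelled knockout, Ier2 was 35.0, 40.9 and 37.6 CPM in 2iL and 52.8, 45.1 and 46.6 CPM in FA with RAS present, a difference of 0.35 (SE 0.11, adjusted p = 0.0106; also 0.35 without those 4 libraries, adjusted p = 0.000735), and with RAS deleted 41.0, 36.0 and 37.2 CPM in 2iL and 42.7, 44.8 and 41.1 CPM in FA.

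Whether an effect differed between backgrounds was tested with interaction terms in the same fit. The effect of the medium differed with RAS for Egr1 in wild type (log2 difference of differences -2.68, SE 0.74, adjusted p = 0.0103) and in labelled knockout (-2.87, SE 0.71, adjusted p = 0.011), as 2 of 9 members in wild type (11.9% of genes) and 4 of 9 in labelled knockout (4.59%). The wild type term was lost without replicate 1 of the RAS present FA group (-1.12, adjusted p = 0.215), without replicate 1 of the RAS deleted 2iL group (-2.27, adjusted p = 0.0564), and without the 4 libraries with raised chromosome 8 (-1.22, adjusted p = 0.215). For Fos the term was 1.18 in wild type (SE 0.40, adjusted p = 0.0352) and -1.03 in labelled knockout (SE 0.32, adjusted p = 0.0335), so the difference of Fos between FA and 2iL changed from -2.20 to -1.02 on RAS deletion in wild type, and from -0.57 to -1.60 in the labelled knockout. Jun (-1.01, SE 0.27, adjusted p = 0.0182) and Junb (-1.09, SE 0.23, adjusted p = 0.00307) were the other 2 in the labelled knockout. The Fos and Jun terms lay close to the 2-fold minimum and were fragile. That of Fos in wild type was lost under 13 of 31 alternatives, 7 of them without a single library (replicate 1 of wild type with RAS present in 2iL, 1 or 3 with RAS deleted in 2iL, 1 or 2 with RAS present in FA, 1 or 2 with RAS deleted in FA), with adjusted p up to 0.252. That of Fos in labelled knockout was lost under 10, 8 of them without a single library (replicate 1 or 3 with RAS present in 2iL, 2 or 3 with RAS deleted in 2iL, 1 with RAS present in FA, any with RAS deleted in FA), with adjusted p up to 0.189. That of Jun fell short of 2-fold or of the p threshold without any 1 of 7 libraries (replicate 1 or 2 with RAS present in 2iL, 1 or 3 with RAS deleted in 2iL, 1 with RAS present in FA, 2 or 3 with RAS deleted in FA), where it ran from -0.99 to -0.86. That of Junb fell just short of 2-fold without replicate 1 of the RAS deleted FA group, and was -1.09 (adjusted p = 0.000146) without the 4 libraries with raised chromosome 8.

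The effect of the medium differed with ERF for Fos (1.63, SE 0.37, adjusted p = 0.00677) and Jun (1.16, SE 0.29, adjusted p = 0.0144) with RAS present, 2 of 9 members (4.27% of genes). With RAS deleted it differed for Junb (-1.57, SE 0.23, adjusted p = 2.29e-05), 1 of 9 (11.3%). Without the 4 libraries with raised chromosome 8, the Junb term was -1.68 (adjusted p = 1.88e-06) and those of Fos and Jun were 1.53 (adjusted p = 0.0506) and 0.62 (adjusted p = 0.168). The Jun term was also lost without wild type replicate 1 in 2iL (0.83) or in FA (0.95, adjusted p = 0.108). The effect of RAS deletion differed with ERF for Fos in FA (-1.32, SE 0.40, adjusted p = 0.0154), 1 of 9 members (13.7%). That term was lost without replicate 1 of wild type with RAS present (adjusted p = 0.0501), without replicate 2 of wild type with RAS deleted (0.0636) and without the 4 libraries with raised chromosome 8 (0.0591). The Jun term there was -0.85 (SE 0.29, adjusted p = 0.029) and passed 2-fold without wild type replicate 2 with RAS present (-1.13) or labelled knockout replicate 1 with RAS deleted (-1.01). In 2iL 0 of 9 members were called for that term (0.378%), 5 had an unadjusted p under 0.05, and DESeq2 called 0. Egr1 was not called for RAS by ERF in FA (-0.51, adjusted p = 0.615) or medium by ERF with RAS present (0.50, adjusted p = 0.733). Without replicate 1 of wild type with RAS present in FA, both were called (-2.07, adjusted p = 0.0121, and 2.05, adjusted p = 0.0414). The nearest in 2iL was Junb at 0.91 (SE 0.22, adjusted p = 0.0379), below 2-fold, and at 1.03 without wild type replicate 3 with RAS present or 1.00 without wild type replicate 1 with RAS deleted. It was 0.75 (adjusted p = 0.0464) without the 4 libraries with raised chromosome 8.

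Other gene groups of the pathway were counted in the same fit. Of 20 other immediate early genes 17 were tested. From 2iL to FA, 6 were called in ERF wild type with RAS present (2 higher, 4 lower, median log2 difference 0.07 beside 0.035 over all genes), 4 with RAS deleted (3 higher, 1 lower), 6 in labelled knockout with RAS present (5 higher, 1 lower) and 6 with RAS deleted (3 higher, 3 lower). The shares of all genes called in these 4 were 24, 16.5, 19.7 and 24.9%. Myc, the growth regulator, rose in all 4 (log2 change 6.86, SE 0.53, adjusted p = 6.07e-09 in ERF wild type with RAS present, from 0.359 to 41.0 CPM). On RAS deletion in FA, 4 were called in wild type (3 higher, 1 lower, beside 17.3% of all genes) and 3 in labelled knockout (1 higher, 2 lower, beside 6.88%). Cyr61 (2.29), Rhob (1.20) and Btg2 (1.13) rose in wild type and Rhob (1.04) rose in labelled knockout, while Ctgf (-1.10) fell there. Myc fell by 3.93 in wild type (SE 0.40, adjusted p = 4.17e-07) and by 1.04 in labelled knockout (SE 0.33, adjusted p = 0.0286). Nr4a1, an orphan nuclear receptor, fell from 2iL to FA in 3 backgrounds, by 1.25, 1.44 and 2.09 log2 units, the most in labelled knockout with RAS deleted (19.4 to 4.56 CPM). RAS deletion in 2iL called 0 of the 17 in both ERF groups, where 1.2 and 0.211% of all genes were called, so a count of 0 carries little weight.

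Of 13 AP-1 partners, which are leucine zipper proteins that pair with Fos or Jun, 10 were tested. On RAS deletion in FA in wild type 3 fell and 0 rose, beside 17.3% of all genes called, namely Maff (-1.60, SE 0.32, adjusted p = 0.000288), Atf3 (-1.34, SE 0.37, adjusted p = 0.00594) and Batf3 (adjusted p = 0.000445). Batf3 had a mean of 0.532 CPM with RAS present and 0.0532 CPM with RAS deleted, below the 0.108 to 0.131 CPM that 3 counts are worth in those libraries, so no fold is given. Of 17 regulators, which hold serum response factor, its cofactors, CREB, kinases and Egr corepressors, all were tested, and at most 4 were called in a comparison, from 2iL to FA in labelled knockout with RAS deleted, where 24.9% of all genes were called. Elk3, an ETS-domain cofactor of serum response factor, was higher in labelled knockout in 2iL (1.25 with RAS present and 1.21 with RAS deleted) and fell from 2iL to FA in labelled knockout (-1.63 and -1.35). Nab2, a corepressor of Egr1, fell by 1.36 from 2iL to FA in labelled knockout with RAS present (SE 0.18, adjusted p = 1.37e-06). It was not called from 2iL to FA in wild type with RAS present, where 0 of the 17 were, beside 24% of all genes.

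The 5 ERK output genes were Dusp6, Spry2, Spry4, Etv4 and Etv5, which encode feedback inhibitors and ETS factors. On RAS deletion in FA, 4 fell in wild type and 3 in labelled knockout, with 0 higher in either, beside 17.3 and 6.88% of all genes called. In 2iL 0 of the 5 were called in both, beside 1.2 and 0.211% of all genes, so a count of 0 says little. Dusp6 stood at 110 CPM with RAS present and 23.5 with RAS deleted in labelled knockout in FA, and Spry4 at 31.9 and 0.337 CPM in wild type. From 2iL to FA with RAS present, 2 rose and 0 fell in wild type and in labelled knockout, beside 24 and 19.7% of genes. With RAS deleted, Dusp6 rose in both, while Spry2 (-3.52) and Etv4 (-3.04) fell in wild type (16.5% of genes). Etv4 (-4.94), Spry4 (-3.09) and Spry2 (-1.78) fell in labelled knockout (24.9%). Between ERF groups in 2iL, Spry4 was higher (3.17 and 4.68) and Etv4 lower (-1.26 and -1.05) with RAS present and deleted. Of the 6 heat shock genes used as a sign of handling, the summed level ran from 603 to 1420 CPM in 2iL and from 757 to 1930 CPM in FA, and was highest in ERF wild type with RAS deleted in FA (1680 to 1930 CPM). In 2iL it was 603 to 660 CPM in labelled knockout with RAS deleted, where Fos and Junb were highest by mean CPM. The sum was 1250 to 1420 CPM in wild type with RAS deleted in 2iL. Of the 6 genes, 3 were called between those 2 groups, beside 13% of all genes (Hsph1 at -1.40 and Hspa8 at -1.32 were lower). Hspa1a, a heat shock protein induced by stress, was higher in the labelled knockout than in wild type there (8.83 against 4.09 CPM, log2 change 1.11, adjusted p = 0.0223). In labelled knockout with RAS deleted, where Fos and Junb fell from 2iL to FA, 3 of the 6 fell, beside 24.9% of all genes called. They were Hspa1a from 8.83 to 2.73 CPM, Hspa1b from 10.8 to 2.7 CPM (adjusted p = 0.000695 and 3.32e-05) and Hspb1 (-1.03). Hspb1 also fell from 2iL to FA with RAS present, in wild type (-1.05) and in labelled knockout (-1.09). The part of handling in the member levels was not tested.

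How members varied together between libraries of a group differed from pair to pair. Over the deviations of log2(CPM + 1) from the group mean in 23 libraries, for the 7 members with a mean of at least 1 CPM, the 21 Pearson correlations ran from -0.22 (Fosl2 and Ier2) to 0.64 (Egr1 and Ier2, Spearman 0.73). The latter was 0.68 without the 2 libraries farthest in Egr1. Of the 3 genes on chromosome 8, Jund and Ier2 correlated at 0.62, Junb and Jund at 0.56 and Junb and Ier2 at 0.37. Without the 2 libraries farthest in the first gene of each pair these were 0.62, 0.29 and 0.54. Jun and Jund correlated at 0.60, and at 0.38 without the 2 libraries farthest in Jun. Fos reached at most 0.20 with any other member, and up to 0.36 (with Junb) without the 2 libraries farthest in Fos. These values share library, depth and group sizes and are descriptions without a test.

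Across the levels in all 23 libraries, among 10175 genes with a mean of at least 5 CPM, the closest patterns by Pearson's r on log2(CPM + 1) were Dusp4 (0.873), Foxq1 (0.868) and Plcxd2 (0.865) for Egr1, Cyb561a3 (0.921), Ice2 (0.919) and Tmem268 (0.918) for Fos, and Tbc1d2 (0.96), Hs3st3b1 (0.953) and Cept1 (0.951) for Junb. Fosl2 lay closest to Stx2 (0.912), Ier2 to Ctu2 (0.901), Jund to Polg (0.838) and Jun to Klhdc8b (0.701), the weakest of the 7 best matches. Dusp4 encodes a phosphatase of ERK and its kinase relatives. Since 8 groups set most of the spread, each r is carried by group differences and has few independent points.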

How the data were processed

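RNA depleted of ribosomal RNA was sequenced from 23 libraries on an Illumina NextSeq as read pairs of 75 bases from stranded libraries, per the labels' protocols. Reads were demultiplexed with bcl2fastq 2.20.0, trimmed with fastp 0.20.0 and quantified with Salmon on mm10, per the submitters' processing notes, and the Salmon version and annotation are not given in the sources used here. The authors deposited a matrix of whole-number estimated counts per gene, which equals the rounded estimated counts of the per-library files, and TPM per gene as deposited by the authors, scaled by effective length. Salmon divides reads between similar transcripts, so low members can take or lose reads to relatives.

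The members and all gene lists were chosen with earlier results of these data known. One further target gene is not reported here. Genes were filtered with filterByExpr (20372 of 53607 kept), scaled by TMM and fitted together over 8 group means with edgeR 4.0.16 (limma 3.58.1, R 4.3.3), using glmQLFit and glmQLFTest, two-sided, with Benjamini-Hochberg adjustment over all tested genes. CPM here uses those scaled library sizes, and log2(CPM + 1) serves the correlations. Tables and figures used Python 3.11.15, pandas 2.3.3, scipy 1.17.1 and matplotlib 3.10.9. Alternatives were DESeq2 1.42.0, RLE scaling in place of TMM, no filter, effective length offsets, leaving out the row Gm26917 (17.65 to 27.86% of counts), only the compared groups, a replicate block and each library left out. One more, leaving out 4 libraries, was chosen after seeing the data. Depths of 16221640 to 29874207 counts put 3 counts, the limit that a count of 0 allows, at 0.0966 to 0.202 CPM, for counting error only. Over 22 pairs of libraries within a group, chi-square per degree of freedom was 3.04 to 44.88 for genes with at least 20 counts, so no pair agreed within sampling noise. Members named are all 10, and genes of the lists are named where called, by size. Nearest patterns are the genes with the highest Pearson's r.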

Additional observations from a re-analysis of the deposited data

Results flagged for a closer look

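Interaction terms in edgeR's fit over 23 libraries passed the threshold for 10 pairs of a member and a contrast, given as log2 differences with Benjamini-Hochberg adjusted p. For Fos, the effect of RAS deletion in FA differed between labelled ERF knockout and wild type by -1.32 (adjusted p = 0.0154), since it was 0.56 in wild type and -0.77 in the labelled knockout. The effect of the medium on Fos differed between RAS deleted and present by 1.18 in wild type (adjusted p = 0.0352) and by -1.03 in labelled knockout (adjusted p = 0.0335), and between ERF groups with RAS present by 1.63 (adjusted p = 0.00677). For Egr1, the effect of the medium differed with RAS by -2.68 in wild type (adjusted p = 0.0103) and by -2.87 in labelled knockout (adjusted p = 0.011). For Jun it differed with RAS by -1.01 in labelled knockout (adjusted p = 0.0182) and with ERF by 1.16 with RAS present (adjusted p = 0.0144). For Junb it differed with RAS by -1.09 in labelled knockout (adjusted p = 0.00307) and with ERF by -1.57 with RAS deleted (adjusted p = 2.29e-05). The groups hold 2 or 3 libraries, too few for a search for outlying samples. Several of these were lost under some of the 31 alternatives: the medium by RAS term of Fos under 13 in wild type and 10 in labelled knockout, that of Jun under 7, that of Egr1 in wild type under 3 (-1.12, adjusted p = 0.215, without replicate 1 of the RAS present FA group) and that of Junb under 1. The medium by ERF terms with RAS present were lost under 5 for Jun and 1 for Fos, and the RAS by ERF term of Fos under 4. The other 2, Egr1 by RAS in labelled knockout and Junb by ERF with RAS deleted, kept their call under all 31.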

How the results depend on the processing

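Over the 50 member values with an adjusted p under 0.05, chosen for passing it, and 1547 alternative values of them, 1460 kept their direction and their call or lack of one (a call needs both the p and 2-fold, and some uncalled values crossed the p alone), 72 lost a call, 15 gained one and 0 reversed. The 50 include Fosl1 in comparisons with labelled knockout with RAS present in FA, the group through which it passed the low-count filter. Its calls there add nothing, here or in the counts below. Among the member values past 0.05 or not tested, alternatives called 8 pairs of member and comparison 15 times in all, for Fosl1, Fosb, Egr1 and Egr2. Counts of called members moved most without the 2-fold minimum: from 2iL to FA to 6 (ERF wild type, RAS present), 3 (wild type, RAS deleted) and 8 (labelled knockout, RAS present), for RAS deletion to 1 (labelled knockout, 2iL), 3 (wild type, FA) and 4 (labelled knockout, FA), between ERF groups to 3 (RAS present, 2iL), 2 (RAS present, FA) and 3 (RAS deleted, FA), and for the RAS by ERF terms to 1 in 2iL and 2 in FA. Without the low-count filter they were 1 (RAS deletion, wild type, 2iL), 2 (ERF, RAS deleted, FA), 0 (RAS by ERF, FA), 1 (medium by RAS, wild type) and 2 (medium by ERF, RAS deleted). With DESeq2 they were 1 (RAS deletion, labelled knockout, FA), 0 (ERF, RAS present, 2iL), 2 (ERF, RAS deleted, FA) and 1 (medium by RAS, wild type). With effective length offsets they were 0 for both ERF comparisons just named and 1 for that term, and without Gm26917 the first was 0. Without the 4 libraries with raised chromosome 8 they were 2 (ERF, RAS present, FA), 0 (ERF, RAS deleted, FA), 0 (medium by RAS, wild type) and 0 (medium by ERF, RAS present). Leaving out 1 library, counts ran from 2 to 3, 0 to 2, 2 to 5 and 3 to 4 for the medium (wild type RAS present, RAS deleted, labelled knockout RAS present, RAS deleted), 0 to 1, 0, 1 and 1 to 2 for RAS deletion (wild type and labelled knockout in 2iL, then in FA), and 0 to 1, 2, 1 to 2 and 0 to 3 for ERF (RAS present and deleted in 2iL, then in FA). For the interaction terms they ran from 0 to 1 and 0 to 2 (RAS by ERF in 2iL and FA), 0 to 2 and 2 to 4 (medium by RAS, wild type and labelled knockout), 1 to 2 and 1 (medium by ERF, RAS present and deleted). The cause of these moves was not tested. On the deposited TPM scale, 7 of 10 members were highest by mean in the same group as on the CPM scale, and Fos, Jun and Egr2 were not.

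The replicate numbers were not taken as pairing the libraries: over all genes, same-numbered deviations correlated at -0.086 to 0.214, and in no comparison were 3 pairs all over 0.1. Raised chromosome 8 does tie the 4 wild type replicate 1 libraries to each other. The fit of the compared groups alone gave counts of 0 (ERF, RAS present, 2iL), 1 (medium by RAS, wild type) and 1 (medium by ERF, RAS present), and adding the replicate block gave 0, 1 and 1, with no other count moved by more than 1.5 times. Under the block, Junb from 2iL to FA in wild type with RAS present just passed 2-fold (adjusted p = 0.0173) and became a call, as did Fosb in labelled knockout with RAS deleted (1.05, adjusted p = 0.0432), which the compared groups alone also called (1.07, 0.0415). Depth limits Fosb, Fosl1 and Egr2, which held at most 32, 20 and 8 counts in a library.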
